A study of Mus musculus with 23 samples.

Results

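The genes described here are 10 members of the hormonal stress system, read in the hippocampus of mice on an alcohol liquid diet. They were chosen by symbol: the neuropeptide Crh, its receptors Crhr1 and Crhr2, its binding protein Crhbp, the corticosteroid receptors Nr3c1 and Nr3c2, the steroid enzyme Hsd11b1, and the glucocorticoid-responsive genes Fkbp5, Tsc22d3 and Sgk1. All 10 were found among the 19733 genes of the deposited table, and all 10 were above 0 in every mouse. Hippocampal RNA was sequenced from 23 male wild-type C57BL/6J mice that were acquired at 6 weeks of age, and the diets ran for 16 weeks, followed by 1 week of behavioral tests. The 9 Ctrl mice received the AIN93M control liquid diet and a daily gavage of the vehicle, 0.05% CMC-Na. The 7 EtOH mice received the ethanol liquid diet and the same vehicle gavage. The 7 EtOH-UA mice received the ethanol liquid diet and urolithin A (UA), a gut microbial metabolite of ellagitannins, by gavage in that vehicle at 200 mg/kg/day. Every group therefore had a liquid diet and daily handling for the gavage, and no group without gavage was analysed here. The EtOH vs Ctrl comparison asks what the alcohol diet did, EtOH-UA vs EtOH asks what UA did on that diet, and EtOH-UA vs Ctrl asks what remained of a difference from control mice.

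CRH acts in the brain through CRHR1 and CRHR2 and is held back by its binding protein, while its release from the hypothalamus starts the hormonal cascade that ends in corticosterone, the glucocorticoid of rodents. Corticosterone enters the brain and binds the mineralocorticoid receptor (Nr3c2) with high affinity and the glucocorticoid receptor (Nr3c1) with lower affinity, and the hippocampus is known for expressing both. The bound receptors move to the nucleus and act on target genes such as Fkbp5, Tsc22d3 and Sgk1.

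Values are FPKM, fragments mapped to a transcript divided by its length and by the size of the library, as the authors deposited them. Levels can therefore be set side by side between genes. Summed FPKM of a library ranged from 327896 to 404609, and the highest value belonged to an EtOH-UA mouse that recurs below. The step between low values, taken over 65 genes that have a single annotated transcript, corresponds to a median of 16.9 fragments per kilobase at 1 FPKM, so Crh, a transcript of 1.32 kb, rests on about 17.6 fragments per mouse, with a counting error of 23.9%. Markers of the dentate gyrus and of fields CA1, CA2 and CA3 were all detected in these hippocampal samples. The libraries stood apart in Ttr, the transthyretin gene that marks the choroid plexus. Ttr was between 3.88 and 70.2 FPKM in 9 libraries (5 Ctrl, 1 EtOH, 3 EtOH-UA) and between 470.2 and 7705 FPKM in the other 14 (4 Ctrl, 6 EtOH, 4 EtOH-UA), with no library in between.

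In EtOH vs Ctrl, 0 of the 10 genes passed the test (limma on log2(FPKM + 0.1), Benjamini-Hochberg adjusted p under 0.05, adjusted p = 0.999 for each). The share of all 15985 genes tested that passed was also 0%. At an unadjusted p under 0.05 the count was again 0 of 10, against 3.05% of all genes. In EtOH-UA vs EtOH, 0 of 10 passed with limma (adjusted p from 0.900 to 0.981) or at an unadjusted p under 0.05, against 0% and 3.27% of all genes. In EtOH-UA vs Ctrl, 0 of 10 passed with limma (adjusted p = 0.999 for each) or at an unadjusted p under 0.05, against 0% and 3.08% of all genes. In each comparison the ranges of the 2 groups overlapped for all 10 genes. Exact permutation tests of each gene, two-sided, gave p from 0.0934 to 0.973 in EtOH vs Ctrl, from 0.182 to 0.915 in EtOH-UA vs EtOH and from 0.416 to 0.963 in EtOH-UA vs Ctrl. The median log2 fold change of the 10 genes was -0.04, 0.03 and -0.01 in the 3 comparisons, and that of all genes was -0.003, 0.003 and 0.002. The comparisons share the Ctrl or the EtOH mice, so their values are not independent of each other. In bulk tissue, fewer cells of a type and less RNA per cell cannot be told apart.

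**Figure D1:**
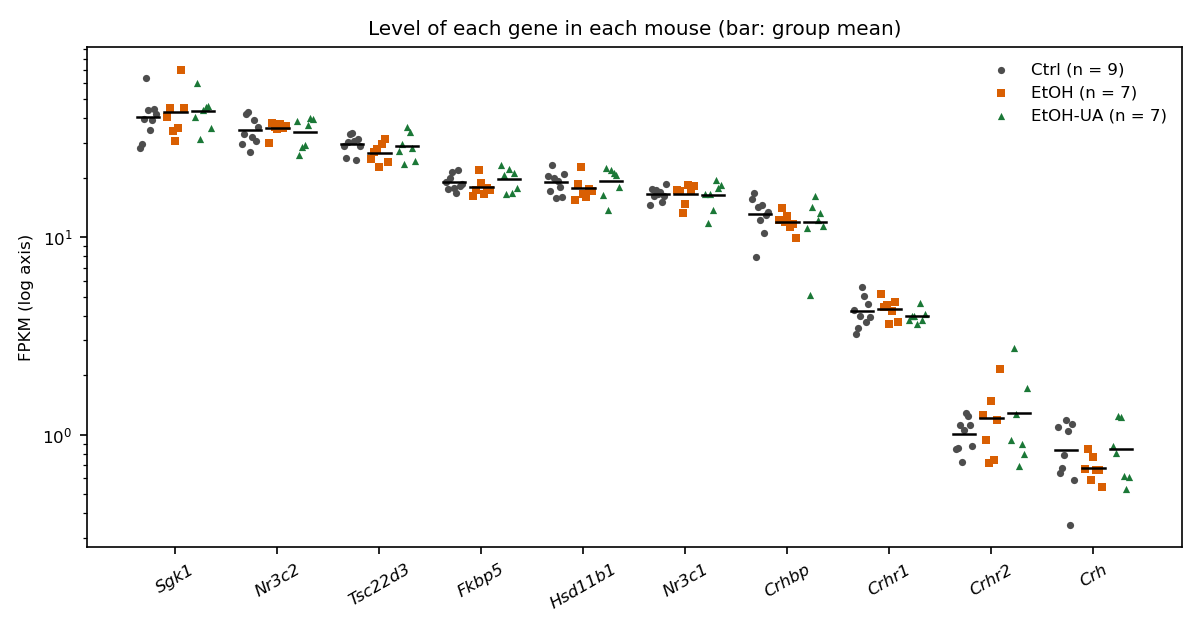
FPKM of the 10 genes (log axis) in each mouse, with 1 point per mouse, colored by group, and a black bar at the group mean. Sgk1 had the highest mean over all mice (42.3 FPKM) and Crh the lowest (0.789 FPKM), and the 3 groups overlap for every gene.

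Crh (chr3:19693401-19695396, GRCm38), the neuropeptide of the system, was the least abundant of the 10. Its level ran from 0.35 to 1.19 FPKM in Ctrl mice (median 0.79), from 0.54 to 0.84 FPKM in EtOH mice (median 0.66) and from 0.53 to 1.24 FPKM in EtOH-UA mice (median 0.81). The EtOH mice lay inside the range of both other groups, and 1 of 7 EtOH mice was above the Ctrl median. The log2 fold change was -0.21 in EtOH vs Ctrl (95% interval -0.62 to 0.20) and 0.24 in EtOH-UA vs EtOH (-0.20 to 0.67). In EtOH-UA vs Ctrl it was 0.03 (-0.38 to 0.44). These intervals were among the widest of the 10 genes and still allow a mean between 0.653 and 1.15 times that of Ctrl mice in the EtOH group. Of the other CRH family ligands, Ucn2 (urocortin 2) averaged 0.107 FPKM over all mice. Ucn was listed at 0 in 18 of 23 mice and Ucn3 in 21 of 23.

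Crhbp (chr13:95431376-95444831) encodes the secreted protein that binds CRH and keeps it from its receptors. Its level ran from 7.94 to 16.8 FPKM in Ctrl mice (median 13.4), from 9.92 to 14.03 FPKM in EtOH mice (median 11.9) and from 5.11 to 16.1 FPKM in EtOH-UA mice (median 12.3). The lowest mouse at 5.11 FPKM was the EtOH-UA mouse with the highest summed FPKM, and the next EtOH-UA mouse was at 11.1 FPKM. The log2 fold change was -0.11 in EtOH vs Ctrl (95% interval -0.46 to 0.25), -0.07 in EtOH-UA vs EtOH (-0.45 to 0.30) and -0.18 in EtOH-UA vs Ctrl (-0.53 to 0.17). Without the mouse at 5.11 FPKM the last 2 log2 fold changes were 0.12 and 0.01. Crhbp mRNA was above Crh mRNA in all 23 mice. Their ratio within a mouse, Crh FPKM over Crhbp FPKM, was 0.0649 ± 0.0232 in Ctrl mice (SD, n = 9), 0.0563 ± 0.00377 in EtOH mice (SD, n = 7) and 0.0779 ± 0.0394 in EtOH-UA mice (SD, n = 7). The EtOH mice were close together, from 0.0495 to 0.0604, and lay inside the ranges of both other groups. Their relative spread was below the estimated counting error of Crh in 1 mouse (23.9%), so the closeness is not read as a trait of the group. The log2 ratio did not pass the test in any comparison (exact permutation test, smallest p = 0.231, adjusted p = 0.831 over the 9 ratio tests).

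The receptors stood in a fixed order. Crhr1 (chr11:104130463-104175523), the receptor with high affinity for CRH, was above Crhr2 in all 23 mice, and the ranges over all mice did not overlap: 3.23 to 5.56 FPKM against 0.69 to 2.73 FPKM. The Crhr1 mean was 4.202 ± 0.756 FPKM in Ctrl (SD, n = 9), 4.34 ± 0.529 FPKM in EtOH (SD, n = 7) and 4.0 ± 0.319 FPKM in EtOH-UA mice (SD, n = 7). Its log2 fold changes were 0.05, -0.11 and -0.05 in EtOH vs Ctrl, EtOH-UA vs EtOH and EtOH-UA vs Ctrl, with bounds of the 95% intervals no further from 0 than 0.32. Crhr2 (chr6:55090048-55133016), the other CRH receptor, ran from 0.73 to 1.28 FPKM in Ctrl mice (median 1.05). It ran from 0.72 to 2.14 FPKM in EtOH mice (median 1.19) and from 0.69 to 2.73 FPKM in EtOH-UA mice (median 0.94). The lower ends of the 3 groups were alike, and the values above 1.28 FPKM came from 2 EtOH mice and 2 EtOH-UA mice. For Crhr2 the log2 fold change was 0.17 in EtOH vs Ctrl (95% interval -0.30 to 0.65), 0.03 in EtOH-UA vs EtOH (-0.47 to 0.54) and 0.21 in EtOH-UA vs Ctrl (-0.27 to 0.68). It was 0.03 in EtOH vs Ctrl without the EtOH mouse at 2.14 FPKM, and 0.01 in EtOH-UA vs Ctrl without the EtOH-UA mouse at 2.73 FPKM. The ratio of Crhr1 to Crhr2 FPKM was 4.25 ± 0.900 in Ctrl mice (SD, n = 9), 4.13 ± 1.63 in EtOH mice (SD, n = 7) and 3.75 ± 1.47 in EtOH-UA mice (SD, n = 7), and its log2 value did not pass the exact permutation test in any comparison (smallest p = 0.312).

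Nr3c2 (chr8:76898083-77245012), the mineralocorticoid receptor, was more abundant than Nr3c1, the glucocorticoid receptor on chromosome 18, in 23 of 23 mice. Nr3c2 ran from 27.0 to 42.9 FPKM in Ctrl mice (median 33.4), from 30.1 to 37.9 FPKM in EtOH mice (median 35.9) and from 26.0 to 40.3 FPKM in EtOH-UA mice (median 37.1). Nr3c1 ran from 14.5 to 18.5 FPKM in Ctrl mice (median 16.5), from 13.2 to 18.4 FPKM in EtOH mice (median 17.2) and from 11.8 to 19.4 FPKM in EtOH-UA mice (median 16.6). The lowest mouse of all 23 for both receptors was the EtOH-UA mouse with the highest summed FPKM. The Nr3c2 to Nr3c1 ratio within a mouse averaged 2.11 ± 0.353 in Ctrl mice (SD, n = 9), 2.17 ± 0.319 in EtOH mice (SD, n = 7) and 2.11 ± 0.213 in EtOH-UA mice (SD, n = 7). The 3 means thus lay closer to each other than 1 SD of any group (exact permutation tests of the log2 ratio, p from 0.719 to 0.949, adjusted p of at least 0.831 over the 9 ratio tests). For Nr3c2 the log2 fold changes were 0.04, -0.07 and -0.03 in EtOH vs Ctrl, EtOH-UA vs EtOH and EtOH-UA vs Ctrl, and for Nr3c1 they were 0.003, -0.04 and -0.03. The 95% intervals of both receptors together reached from -0.29 to 0.25.

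**Figure D2:**
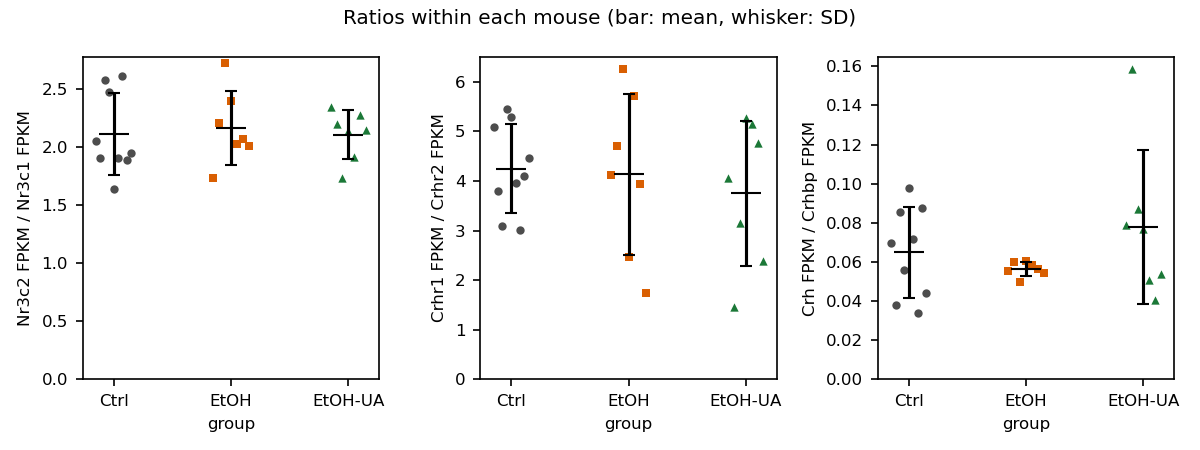
Ratio of 2 FPKM values within each mouse for Nr3c2 over Nr3c1, Crhr1 over Crhr2 and Crh over Crhbp, with 1 point per mouse, a bar at the group mean and whiskers of 1 SD. All Nr3c2 to Nr3c1 ratios lie between 1.64 and 2.72, and the 7 EtOH mice lie between 0.0495 and 0.0604 for Crh to Crhbp, a spread below the estimated counting error of Crh.

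Hsd11b1 (chr1:193221640-193264045) encodes the enzyme that regenerates active glucocorticoid inside cells. Its mean was 19.0 ± 2.46 FPKM in Ctrl (SD, n = 9), 17.7 ± 2.41 FPKM in EtOH (SD, n = 7) and 19.1 ± 3.25 FPKM in EtOH-UA mice (SD, n = 7). Over all mice it ran from 13.7 to 23.3 FPKM, and 1 of 7 EtOH mice was above the Ctrl median. The log2 fold changes were -0.10, 0.11 and 0.01 in EtOH vs Ctrl, EtOH-UA vs EtOH and EtOH-UA vs Ctrl, with 95% intervals inside -0.31 to 0.32. Hsd11b2, which encodes the enzyme that inactivates the hormone, averaged 0.0261 FPKM over all mice and was listed at 0 in 8 of them.

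Fkbp5 (chr17:28398753-28486149) encodes a co-chaperone that lowers the hormone affinity of the glucocorticoid receptor and is itself induced by that receptor. Its level ran from 16.7 to 21.9 FPKM in Ctrl mice (median 18.6), from 16.1 to 21.9 FPKM in EtOH mice (median 17.4) and from 16.5 to 23.1 FPKM in EtOH-UA mice (median 20.7). Of the 7 EtOH-UA mice, 5 were above the EtOH median, and the groups overlapped over most of their ranges. The log2 fold change in EtOH-UA vs EtOH was 0.13 (SE 0.08, 95% interval -0.04 to 0.30, limma adjusted p = 0.900, exact permutation p = 0.190). In EtOH vs Ctrl it was -0.08 (-0.24 to 0.08) and in EtOH-UA vs Ctrl 0.05 (-0.11 to 0.21). A single EtOH mouse at 21.9 FPKM carried much of the EtOH range. Without it the log2 fold change in EtOH-UA vs EtOH was 0.18, with an unadjusted limma p of 0.0318, an adjusted p of 0.574 and an exact permutation p of 0.0664. Leaving out the highest mouse of the lower group widens the difference by construction. With each mouse left out in turn the log2 fold change ranged from 0.09 to 0.18.

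Tsc22d3 (chrX:140539528-140600522) encodes GILZ, the glucocorticoid-induced leucine zipper. It ran from 24.5 to 33.5 FPKM in Ctrl mice (median 30.4), from 22.6 to 31.5 FPKM in EtOH mice (median 27.1) and from 23.5 to 36.3 FPKM in EtOH-UA mice (median 28.2). In the EtOH group 1 of 7 mice was above the Ctrl median. The EtOH vs Ctrl log2 fold change was -0.15 (SE 0.09, 95% interval -0.33 to 0.04), the smallest exact permutation p of the 10 genes in that comparison (p = 0.0934, limma adjusted p = 0.999). The unadjusted limma p was 0.108, and it was 0.0487 without the EtOH mouse at 31.5 FPKM, with an adjusted p of 0.9997 and an exact permutation p of 0.0396. That mouse was the highest of the lower group, so leaving it out widens the difference by construction. With each mouse left out in turn the log2 fold change ranged from -0.19 to -0.11. In EtOH-UA vs EtOH the log2 fold change was 0.11 (-0.08 to 0.31) and in EtOH-UA vs Ctrl -0.04 (-0.22 to 0.15).

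Sgk1 (chr10:21882184-21999903) encodes a serine/threonine kinase induced by both corticosteroid receptors and was the most abundant of the 10 on the FPKM scale. It ran from 28.3 to 64.2 FPKM in Ctrl mice (median 39.7), from 30.7 to 70.4 FPKM in EtOH mice (median 40.7) and from 31.4 to 60.5 FPKM in EtOH-UA mice (median 43.9). Each group held 1 mouse above 60 FPKM, and the remaining mice lay between 28.3 and 46.2 FPKM. The log2 fold change was 0.08 in EtOH vs Ctrl (95% interval -0.26 to 0.41), 0.03 in EtOH-UA vs EtOH (-0.33 to 0.38) and 0.10 in EtOH-UA vs Ctrl (-0.23 to 0.44). Without the EtOH mouse at 70.4 FPKM the first of these was -0.05.

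**Figure D3:**
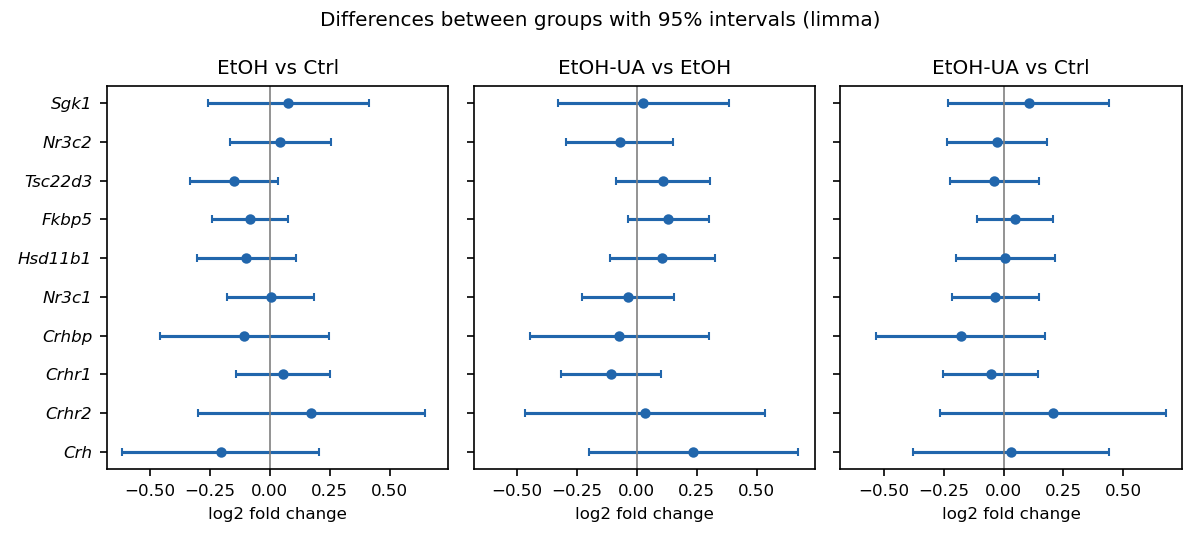
Log2 fold change of each gene (points) with its 95% interval (whiskers) from the limma fit on log2(FPKM + 0.1), for the 3 comparisons. Every interval includes 0, and the bounds reach from -0.62 to 0.68, both at the genes below 2 FPKM, Crh and Crhr2.

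The promoter sequences are shown for the target genes because the palindromic glucocorticoid response element, to which the corticosteroid receptors bind as dimers, could be looked up in them. RefSeq promoter windows (GRCm38.p6, 250 bases before to 50 after a start site) were matched for 8 of the 10 genes, not for Crh or Nr3c1, and gave 15 windows. The motif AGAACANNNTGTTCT, which reads the same on both strands, was in 3 of 32851 windows of all genes (0.00913%), and 1 of these was a window of Sgk1. Its half-site AGAACA, searched on both strands and also contained in the full motif, was in 6233 windows of all genes (19.0%) and in 4 of the 15 windows: 3 of the 6 for Sgk1 and 1 of the 3 for Tsc22d3. The windows of Fkbp5, Crhr1, Crhr2, Crhbp, Nr3c2 and Hsd11b1 held neither string of letters. Below are the 250 bases before the start site, 5′ to 3′ on the strand of the gene, for the Sgk1 window with the full motif (chr10:21993640-21993889, plus strand) and the Tsc22d3 window with a half-site (chrX:140600523-140600772, minus strand), with matches in capitals. The Sgk1 motif begins 189 bases before the start site and the Tsc22d3 half-site 185 bases before it. A match is a string of letters and was not tested for binding.
Sgk1: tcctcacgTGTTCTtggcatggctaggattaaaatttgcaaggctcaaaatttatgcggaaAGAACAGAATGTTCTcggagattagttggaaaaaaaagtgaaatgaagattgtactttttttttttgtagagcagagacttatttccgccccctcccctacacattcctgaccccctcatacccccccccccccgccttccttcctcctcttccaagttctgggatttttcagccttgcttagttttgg
Tsc22d3: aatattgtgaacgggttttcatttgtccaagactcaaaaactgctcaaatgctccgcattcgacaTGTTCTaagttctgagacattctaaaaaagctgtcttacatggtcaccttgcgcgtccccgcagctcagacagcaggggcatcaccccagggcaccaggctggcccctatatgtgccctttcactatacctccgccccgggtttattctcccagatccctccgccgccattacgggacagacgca

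On the FPKM scale the order of mean levels over all 23 mice was Sgk1 (42.3), Nr3c2 (34.8), Tsc22d3 (28.6), Fkbp5 (18.9), Hsd11b1 (18.6), Nr3c1 (16.5), Crhbp (12.4), Crhr1 (4.18), Crhr2 (1.16) and Crh (0.789). Neighbors in this order overlapped in range except for Crhr1 and Crhr2. Within a mouse, Tsc22d3 was above Fkbp5 in 23 of 23 and Crhbp above Crhr1 in 23 of 23. Fkbp5, Hsd11b1 and Nr3c1 were not separated: Fkbp5 was above Hsd11b1 in 14 of 23 mice, and Hsd11b1 above Nr3c1 in 14 of 23.

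The genes also differed in how much they varied between mice. The highest mouse was 3.96 times the lowest for Crhr2, 3.54 times for Crh, 3.29 times for Crhbp and 2.49 times for Sgk1. For Fkbp5 it was 1.43 times, and for Nr3c1 1.64 times. Among the 12904 genes that averaged 1 FPKM or more, the SD within groups on the log2 scale stood at percentile 97.5 for Crhr2, 94.7 for Crhbp and 93.6 for Sgk1. The same percentile was 47.1 for Fkbp5, and the remaining 5 genes at or above 1 FPKM lay between 58.3 and 71.1. These percentiles set genes of unlike level side by side, and counting error is part of the spread. Its estimate per mouse was 23.9% for Crh, 13.2% for Crhr2, 5.19% for Crhbp and 2.13% for Sgk1.

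After group means were removed, the 45 pairs among the 10 genes had Pearson r from -0.65 to 0.57 over the 23 mice. At an unadjusted p under 0.05 there were 8 pairs, and 0 of 45 passed after adjustment (100000 permutations within groups, Pearson and Spearman). The share among pairs of all genes was not computed. Sgk1 and Tsc22d3 varied in the same direction in each group: r was 0.57 (permutation p = 0.00563, adjusted p = 0.0870) and rho 0.56 (permutation p = 0.00803, adjusted p = 0.181). Within Ctrl, EtOH and EtOH-UA mice r was 0.59, 0.57 and 0.61, and without the 2 mice farthest from the median of Tsc22d3 it was 0.56, and without the 2 farthest on Sgk1 0.46. The 3 mice above 60 FPKM for Sgk1 had Tsc22d3 at 33.3 (Ctrl), 31.5 (EtOH) and 29.8 FPKM (EtOH-UA). Crh and Nr3c2 had r = -0.64 (permutation p = 0.00580, adjusted p = 0.0870) and rho = -0.65 (permutation p = 0.00576, adjusted p = 0.181), with -0.70, 0.09 and -0.71 in the 3 groups and -0.61 without the 2 mice farthest on Crh. For Crhr2 and Crhbp, r was -0.65 (permutation p = 0.00239, adjusted p = 0.0870) and rho -0.43 (permutation p = 0.0400, adjusted p = 0.228). Without the 2 mice farthest on Crhr2 that r was -0.37, so it rested largely on these mice. Nr3c1 and Fkbp5 had r = -0.57 (permutation p = 0.0128, adjusted p = 0.144) and rho = -0.53 (permutation p = 0.0207, adjusted p = 0.228). That r was -0.33, -0.92 and -0.50 in the 3 groups and -0.51 without the 2 mice farthest on Nr3c1. The 2 genes also varied in opposite directions with the CA3 markers. There r was -0.72 for Nr3c1 (given below) and 0.60 for Fkbp5 (permutation p = 0.00634, adjusted p = 0.0898 over 170 relations). A link between receptor and co-chaperone was not tested.

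**Figure D4:**
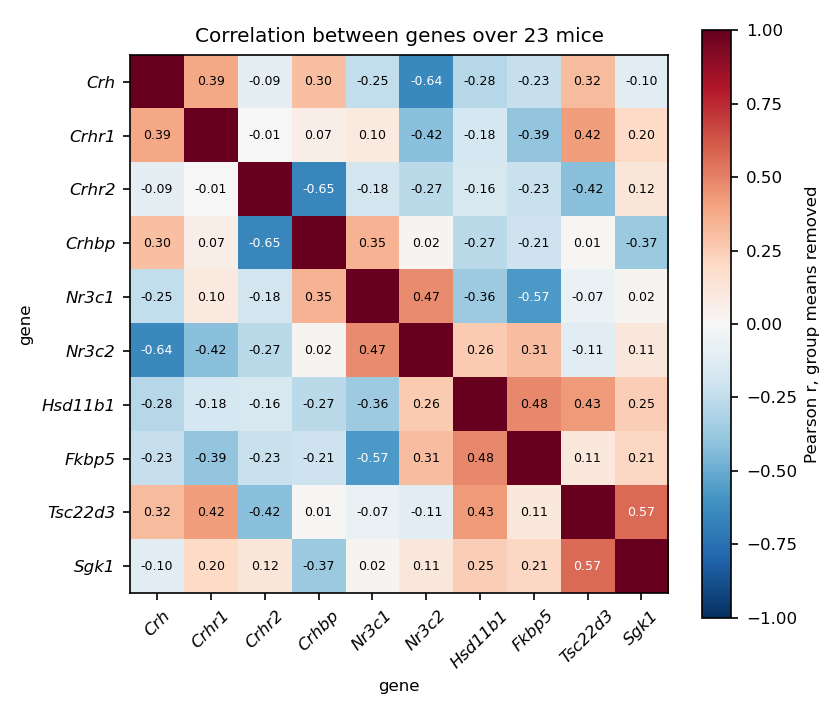
Pearson r for each pair of the 10 genes over 23 mice, after the group mean of log2(FPKM + 0.1) was removed from each mouse, with red for positive and blue for negative values. The lowest value is -0.65 (Crhr2 and Crhbp) and the highest 0.57 (Tsc22d3 and Sgk1).

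Crhr2 was set beside Ttr because the libraries differed in choroid plexus RNA, a choice made once the values were known. In the relations with Ttr, group means were kept and libraries were permuted across groups, so differences between groups enter them. Among the 14 libraries with Ttr of at least 470.2 FPKM, log2 Crhr2 had r = 0.76 with log2 Ttr (permutation p = 0.00188, adjusted p = 0.0376 over 20 relations) and rho = 0.57 (permutation p = 0.0336). Without the 2 libraries farthest from the median of Ttr, r was 0.52. In the 9 libraries with low Ttr, r was -0.13 (permutation p = 0.771). The 3 mice with the highest Crhr2 were the 3 with the highest Ttr: an EtOH-UA mouse at 2.73 and 7705 FPKM, an EtOH mouse at 2.14 and 5628 FPKM, and an EtOH-UA mouse at 1.72 and 3356 FPKM. The summed level of 10 choroid plexus markers had a median of 62.0 FPKM in Ctrl mice (range 9.20 to 3000), 1292 FPKM in EtOH mice (72.7 to 5811) and 1878 FPKM in EtOH-UA mice (17.3 to 7880), and none of the 10 was at 0 in all mice. With the choroid plexus score as a covariate, an alternative added after the data had been seen, the log2 fold change of Crhr2 in EtOH vs Ctrl was -0.11 in place of 0.17. Crhbp went the other way: it ran from 12.3 to 16.8 FPKM (median 14.2) in the 9 libraries with low Ttr and from 5.11 to 14.3 FPKM (median 11.5) in the 14 with high Ttr, and with the covariate its log2 fold change in EtOH vs Ctrl was 0.12 in place of -0.11. Within the 14 libraries the r of Crhbp with Ttr was -0.61 (permutation p = 0.0229, adjusted p = 0.210), and rho was -0.53 (permutation p = 0.0510). A relation with Ttr was not particular to these 2 genes. In the same libraries Hsd11b1 had r = 0.54 (permutation p = 0.0465, adjusted p = 0.213) and rho = 0.67 (permutation p = 0.0101). Crhr1 had r = -0.53 (permutation p = 0.0532, adjusted p = 0.213) and rho = -0.66 (permutation p = 0.0121). The p-values of rho were not adjusted.

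**Figure D5:**
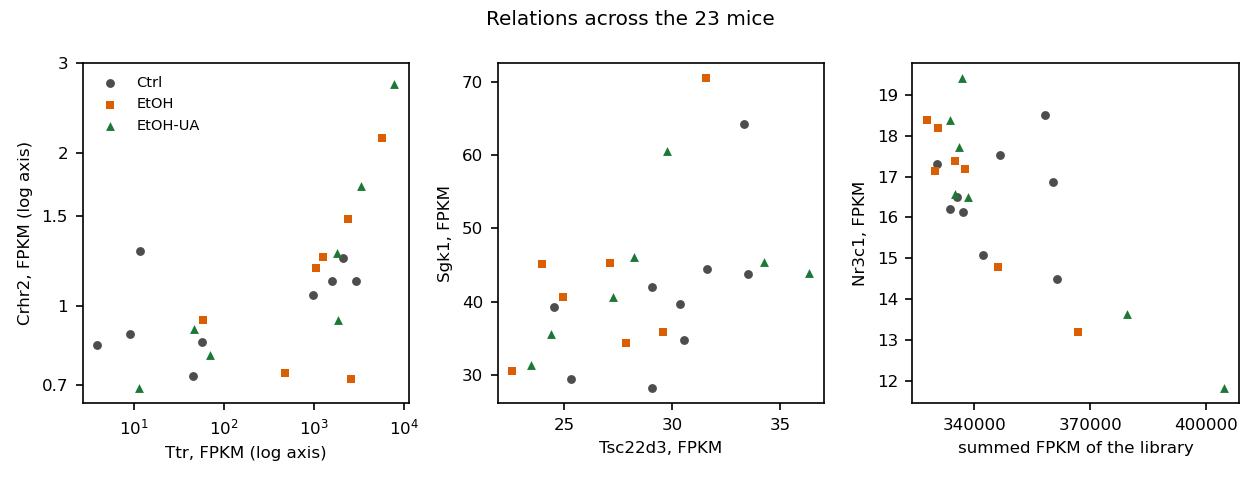
Values in each of the 23 mice, colored by group: Crhr2 against Ttr (both FPKM on log axes), Sgk1 against Tsc22d3 (FPKM), and Nr3c1 (FPKM) against the summed FPKM of the library. The 3 highest Crhr2 values sit at the 3 highest Ttr values, and the lowest Nr3c1 value, 11.8 FPKM, sits at the highest summed FPKM.

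Other measures of a library were set beside these genes. The share of all genes that relate to these measures was not computed, so the counts do not set the 10 genes apart from other genes. Of 170 relations between the 10 genes and 17 measures (15 marker lists, a list of core clock and clock output genes, and summed FPKM), 8 had an adjusted permutation p under 0.05. They include those of Crhr2 and Crhbp with the choroid plexus list. For Crhbp r was -0.72 (permutation p = 5e-05, adjusted p = 0.0085), the smallest p of the 170, and rho was -0.78 (permutation p = 7e-05). Its r was -0.82, -0.81 and -0.68 in Ctrl, EtOH and EtOH-UA mice, and -0.64 without 2 mice. For Crhr2 r was 0.67 (permutation p = 0.00044, adjusted p = 0.0249) and rho 0.63 (permutation p = 0.00155). Its r was 0.55, 0.65 and 0.87 in these groups, and 0.65 without 2 mice. Crhbp, which marks subsets of inhibitory neurons in the cortex and hippocampus, had r = 0.75 with the interneuron markers (permutation p = 0.000200, adjusted p = 0.0170) and 0.84 with the CA1 markers (permutation p = 0.000880, adjusted p = 0.0266). The Spearman rho values were 0.65 (permutation p = 0.00203) and 0.48 (permutation p = 0.0246), and without the 2 mice farthest on the list r was 0.66 and 0.48. Within Ctrl, EtOH and EtOH-UA mice r was 0.89, 0.48 and 0.75 for the interneuron markers and 0.85, 0.28 and 0.92 for the CA1 markers. Nr3c1 had r = -0.80 with summed FPKM (permutation p = 0.000830, adjusted p = 0.0266) and rho = -0.62 (permutation p = 0.00349). That relation was not seen in every group: r was -0.03 in Ctrl mice, -0.97 in EtOH mice and -0.95 in EtOH-UA mice, and -0.60 without the 2 mice farthest on summed FPKM. Nr3c1 also had r = 0.70 with the clock list (permutation p = 0.000940, adjusted p = 0.0266, rho = 0.52, permutation p = 0.0131, 0.65 without 2 mice) and -0.72 with the CA3 markers (permutation p = 0.00167, adjusted p = 0.0406, rho = -0.56, permutation p = 0.0134, -0.54 without 2 mice). Both were weakest in Ctrl mice: r was 0.23, 0.67 and 0.90 in the 3 groups with the clock list and -0.18, -0.67 and -0.91 with the CA3 markers. The clock score averages core clock genes such as Arntl and Clock with outputs such as Dbp, so it does not measure clock output by itself. Crhr1 had r = -0.54 with the CA3 markers (permutation p = 0.00199, adjusted p = 0.0423, rho = -0.67, permutation p = 0.000290, -0.64 without 2 mice), with -0.75, -0.72 and -0.42 in the 3 groups. FPKM are already divided by the size of the library, so summed FPKM does not measure sequencing depth. The part of cell composition or summed FPKM in the values of these genes was not tested beyond the covariates given.

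The genes most alike each member across the mice were found by Pearson r over 23 mice among the 12904 genes that averaged 1 FPKM or more, as a description. Sgk1 was most like Tob2 (r = 0.85), Arrdc2 (0.80) and Plekhf1 (0.78), and Tsc22d3 was most like Cybc1 (0.83), Ifrd1 (0.73) and Cerk (0.72). Fkbp5 was most like Cabp7 (0.86), Kcng2 (0.84) and Hpca (0.84). For Crhbp these were Sez6 (0.94), Ankrd63 (0.91) and Bcr (0.91), and for Crhr2 Adora2b (0.85), Ctnnal1 (0.85) and L3mbtl3 (0.85). For Nr3c1 they were G2e3 (0.93), Pcgf5 (0.92) and Lrrc8b (0.91), and for Nr3c2 Ppp3ca (0.90), Gpr63 (0.89) and Nckap1 (0.89). Crhr1 was most like Osbpl5 (0.82), Whrn (0.82) and Ddit4l (0.81), and Hsd11b1 was most like Tmem167b (0.83), with Ube2e2 (0.81) also among its closest 3.

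The wider pathway was read through 7 lists, and 0 genes of any list passed limma at an adjusted p under 0.05 in any comparison. The lists were chosen with earlier results of these data known, and their genes were measured in the same mice. Counts and directions of the lists are therefore a description and not a test. Of the 32 glucocorticoid target genes, which include Fkbp5, Tsc22d3 and Sgk1, 0 had an unadjusted p under 0.05 in EtOH vs Ctrl, where 14 had a log2 fold change above 0 and 18 below (median -0.02). In EtOH-UA vs EtOH, 3 of 32 had an unadjusted p under 0.05, against 3.27% of all genes, and all 3 were higher. In that comparison 25 of 32 log2 fold changes were above 0 and 7 below, against 51.2% above 0 for all genes, and the median was 0.08, against 0.003 for all genes. The 3 were Gjb6, a gap junction gene of astrocytes (27.0 ± 4.31 against 22.7 ± 3.42 FPKM, SD, n = 7 each), Mt1, a metallothionein (222.0 ± 41.9 against 189.4 ± 15.5 FPKM), and Rhob, a small GTPase (94.96 ± 5.26 against 87.8 ± 7.56 FPKM). Their adjusted p was 0.900 each (limma), and the exact permutation p of Gjb6 was 0.0554. Mt1 and Rhob are named because the count was small, after their values were seen. In EtOH-UA vs Ctrl, 2 of 32 had an unadjusted p under 0.05, against 3.08% of all genes, and both were higher. There 23 log2 fold changes were above 0 and 9 below (median 0.05), against 51.2% above 0 for all genes. These were Sult1a1, a sulfotransferase (log2 fold change 0.43, limma adjusted p = 0.999, exact permutation p = 0.00804), and Cdkn1a, the cell cycle inhibitor p21 (0.33), which is likewise named after its value was seen.

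Among the 5 CRH system genes tested, 4 of them described above, 0 had an unadjusted p under 0.05 in any comparison. Of 8 other stress axis hormones and receptors tested, 2 did in EtOH vs Ctrl, where 3.05% of all genes did. Pomc, the precursor of ACTH, was at 0.421 ± 0.209 FPKM in EtOH (SD, n = 7) against 0.719 ± 0.215 FPKM in Ctrl mice (SD, n = 9), with a log2 fold change of -0.71 (limma adjusted p = 0.999, exact permutation p = 0.0201). Avpr1a, a vasopressin receptor, was at 0.159 ± 0.0865 against 0.0933 ± 0.0357 FPKM (log2 fold change 0.38, limma adjusted p = 0.999, exact permutation p = 0.0379). In EtOH-UA vs EtOH, Oxt (oxytocin) had a log2 fold change of 0.91 (limma adjusted p = 0.900, exact permutation p = 0.0705), with mice listed at 0 in both groups and a highest value of 0.92 FPKM. Of 17 corticosteroid receptors, chaperones and coregulators, among them Nr3c1, Nr3c2 and Fkbp5, Ptges3, the p23 co-chaperone, was the single gene with an unadjusted p under 0.05, at 74.1 ± 8.41 FPKM in EtOH-UA (SD, n = 7) against 67.5 ± 5.83 FPKM in Ctrl mice (SD, n = 9, limma adjusted p = 0.999, exact permutation p = 0.0874). Of 9 genes of steroid synthesis and metabolism and 8 mineralocorticoid targets tested, 0 had an unadjusted p under 0.05 in any comparison. The transcriptional clock, whose outputs respond to glucocorticoids, was read through 16 core clock and clock output genes. In EtOH vs Ctrl, 6 had a log2 fold change above 0 and 10 below (median -0.04), against 48.6% above 0 for all genes. At an unadjusted p under 0.05 there were 4 of 16, all lower, against 3.05% of all genes in either direction. Dbp had the smallest p of these: 27.7 ± 1.98 FPKM in EtOH (SD, n = 7) against 33.4 ± 3.06 FPKM in Ctrl mice (SD, n = 9), a log2 fold change of -0.27 (limma adjusted p = 0.938, exact permutation p = 0.00122). The others were Ciart (-0.24), Nr1d1 (-0.15) and Bhlhe41 (-0.15), named after their values were seen. In EtOH-UA vs Ctrl, Dbp (-0.18) and Ciart (-0.18) were again lower at an unadjusted p under 0.05, against 3.08% of all genes. There 5 of the 16 log2 fold changes were above 0 and 11 below. In EtOH-UA vs EtOH, 0 of 16 had an unadjusted p under 0.05. The time of day at which each mouse was sampled was not used here.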

How the data were processed

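Hippocampal RNA of 23 mice was sequenced by the study (paired-end reads of 100 bases), and the authors deposited FPKM per gene to 2 decimals. The methods name poly(A)+ RNA on a BGISEQ instrument and the labels total RNA on an MGISEQ instrument. Reads were aligned to mm10 with Bowtie2 and quantified with RSEM by the authors. The submitters' processing notes list Bowtie2 2.2.5, HISAT2 2.1.0, RSEM 1.2.8, StringTie and DESeq. FPKM are not counts, so no count test was run, and depth was estimated from steps between low values. Columns were assigned to groups by name. Mouse numbers given below are the order of the columns within a group and need not match the replicate numbers of the labels. No 2 columns were identical, and all 23 mice entered the fit.

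The fit used log2(FPKM + 0.1), so fold changes of low genes are understated. The 15985 genes that averaged 0.1 FPKM or more were fitted in limma 3.58.1 (R 4.3.3) as 3 groups with an intensity trend, and p-values were adjusted over all genes by the Benjamini-Hochberg method at a threshold of 0.05. For single genes and ratios, exact permutation tests (two-sided) ran over 3432 splits for EtOH-UA vs EtOH and 11440 for comparisons with Ctrl. The smallest possible p for EtOH-UA vs EtOH is 0.000583. Correlations used deviations from group means with 100000 permutations within groups, or 10000 when a mouse was left out. Those with Ttr used the values themselves, and libraries were permuted across groups within the low or the high Ttr set. The fit was tested on simulated data. Each sample is 1 mouse.

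The named genes were all members, per list and comparison the gene with the smallest unadjusted p under 0.05 in each direction, any gene with an adjusted p under 0.05, and the 3 genes most alike each member of at least 1 FPKM, of which 1 is not reported here. The members and the lists were chosen with earlier results of these data known. Coordinates come from RefSeq on GRCm38.p6, the assembly also called mm10, promoters from RefSeq, and transcript lengths from GENCODE. Alternatives were other pseudocounts, filters, scalings, eBayes settings and weights, only the mice compared, each mouse left out in turn, and 2 covariates added after the data were seen.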

Additional observations from a re-analysis of the deposited data

Results flagged for a closer look

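In 2 groups of mice the lowest value lay far from the others by Dixon's gap test, where the gap to the nearest mouse is divided by the range of the group on the log2 scale. For Crhbp in EtOH-UA mice the gap was 0.673 of the range, from 5.11 FPKM to the next mouse at 11.1 FPKM. For Nr3c2 in EtOH mice it was 0.713 of the range, from 30.1 FPKM to the next mouse at 35.5 FPKM. Chance passes about 1 in 20 groups, and 39 groups were tested, which gives 1.95 by chance.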

How the results depend on the processing

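The count of member genes with an adjusted p under 0.05 was 0 in all 3 comparisons under every alternative except the 2 covariates, for which fold changes alone were computed. The lowest adjusted p of a member under those alternatives was 0.574 (limma). Member log2 fold changes stayed between -0.33 and 0.32, covariates included. As 0 members were past the threshold, a change of sign concerns values near 0, and its cause was not tested. No paired analysis was possible because the groups are separate mice, which the labels and methods tie to no shared litter, batch or day, and the columns carry no replicate numbers. Depth limits Crh most, with about 7.79 fragments in its lowest mouse.

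With array quality weights, log2 fold changes in EtOH-UA vs EtOH turned to -0.073 (Crhr2), 0.053 (Nr3c2), 0.038 (Nr3c1), -0.12 (Sgk1) and 0.000517 (Crhbp), and in EtOH-UA vs Ctrl to 0.10 (Nr3c2), -0.022 (Hsd11b1), -0.094 (Crh) and 0.084 (Nr3c1). With these weights 1 gene of the whole table, Cd24a, was called in EtOH vs Ctrl, in place of 0. Under quantile normalization Sgk1 turned to -0.018 in EtOH-UA vs EtOH, and in EtOH-UA vs Ctrl Hsd11b1 turned to -0.0065 and the Nr3c2 to Nr3c1 log2 ratio to -0.0050. Under upper-quartile scaling Hsd11b1 turned to -0.000864 in EtOH-UA vs Ctrl. With the choroid plexus score as a covariate Crhr2 turned to -0.11 and Crhbp to 0.12 in EtOH vs Ctrl, and Tsc22d3 to 0.0049 in EtOH-UA vs Ctrl. With summed FPKM as a covariate Nr3c1 turned to -0.0451 in EtOH vs Ctrl, 0.061 in EtOH-UA vs EtOH and 0.016 in EtOH-UA vs Ctrl. With that covariate Crhr2 turned to -0.019 and Nr3c2 to 0.0033 in EtOH-UA vs EtOH, and Nr3c2 to 0.010 and Hsd11b1 to -0.032 in EtOH-UA vs Ctrl. Both covariates were chosen after seeing the data.

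With each mouse left out in turn, the genes of the whole table called in each comparison ranged from 0 to 1: LOC115488002 in EtOH vs Ctrl without Ctrl mouse 9, and LOC101055676 in both comparisons of EtOH-UA mice without EtOH-UA mouse 6 or 7. Members at an unadjusted p under 0.05 ranged from 0 to 1 in EtOH vs Ctrl and in EtOH-UA vs EtOH, and members past the exact permutation test from 0 to 1. These were Fkbp5 and Tsc22d3. Without EtOH mouse 3 (Fkbp5 at 21.9 FPKM) Fkbp5 had a permutation p of 0.0376 and an unadjusted limma p of 0.0897 in EtOH vs Ctrl, and 0.0664 and 0.0318 in EtOH-UA vs EtOH. Without EtOH-UA mouse 3 (16.5 FPKM) the latter comparison gave a permutation p of 0.0967 and a limma p of 0.0459. Without EtOH mouse 6 (Tsc22d3 at 31.5 FPKM) Tsc22d3 had a permutation p of 0.0396 and a limma p of 0.0487 in EtOH vs Ctrl, and without Ctrl mouse 7 (24.5 FPKM) 0.0373 and 0.0511. Each of these mice was the highest of the lower group or the lowest of the higher group, so leaving it out widens the difference by construction. Pairs of members past the adjusted permutation test ranged from 0 to 1: Crhr2 and Crhbp, at an adjusted p of 0.0495 without EtOH mouse 5 and 0.0405 without Ctrl mouse 6. These p-values came from 10000 permutations, so on which side of the threshold they fall is uncertain.

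Leaving out 1 mouse turned these log2 values, which then ranged as follows. In EtOH vs Ctrl, Nr3c1 ranged from -0.023 to 0.057, Sgk1 from -0.048 to 0.16, the Nr3c2 to Nr3c1 ratio from -0.016 to 0.093 and the Crhr1 to Crhr2 ratio from -0.23 to 0.059. In EtOH-UA vs EtOH, Crhr2 ranged from -0.16 to 0.18, Nr3c1 from -0.091 to 0.036, Sgk1 from -0.057 to 0.15, Crhbp from -0.16 to 0.12, the Nr3c2 to Nr3c1 ratio from -0.086 to 0.022 and the Crhr1 to Crhr2 ratio from -0.32 to 0.051. In EtOH-UA vs Ctrl, Nr3c2 ranged from -0.071 to 0.035, Tsc22d3 from -0.094 to 0.011, Hsd11b1 from -0.035 to 0.083, Crh from -0.091 to 0.12, Nr3c1 from -0.079 to 0.039, Crhbp from -0.26 to 0.010 and the Nr3c2 to Nr3c1 ratio from -0.037 to 0.052.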

Other observations

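The EtOH-UA mouse with the highest summed FPKM (404609) was at an extreme of the 23 mice for 4 of the 10 genes: highest for Crhr2 (2.73 FPKM) and lowest for Crhbp (5.11 FPKM), Nr3c1 (11.8 FPKM) and Nr3c2 (26.0 FPKM). It also had the highest Ttr, at 7705 FPKM. Its Hsd11b1 (22.4 FPKM) was the highest of the EtOH-UA group, and its Sgk1 (60.5 FPKM) was the highest of that group too, while its Fkbp5 (20.7 FPKM) was the group median. For comparison, the EtOH mouse with Ttr at 5628 FPKM had a summed FPKM of 330667 and Crhbp at 9.92 FPKM.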
